A study of Mus musculus with 136 samples.

Results

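The Vmn2r genes encode type 2 vomeronasal receptors, and all 123 genes annotated as protein-coding on chromosomes 1 to 19 with a symbol starting in Vmn2r were taken, of 20665 autosomal protein-coding genes in all. Each gene was read as a window, its annotated body plus 2500 bp on either side, against 10 lists of enriched regions from mouse embryonic stem (ES) cells. The rule used the annotation alone and no measured value. Vmn2r-ps130 is a member because the annotation calls it protein-coding, whatever its name.

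The cells were the male ES line E14JU, of the 129/Ola strain, kept on gelatin in serum with leukaemia inhibitory factor and not treated further. Wild-type (WT) cells were clone 410. MCM2-2A cells, clones 439 and 442, carried point mutations in MCM2, a replicative helicase subunit, which impair its binding of histones and so the passing of parental histones to the lagging strand. Of 136 samples, 26 lay behind the lists. The histone marks were read in WT 410 only, by native ChIP-seq of micrococcal nuclease-digested chromatin, in an original experiment (2 replicates per mark) and in a rescue experiment (3 replicates per mark). SUZ12, which Polycomb repressive complex 2 (PRC2) needs for its histone methyltransferase activity, was read in crosslinked, sonicated chromatin of WT 410, MCM2-2A 439 and MCM2-2A 442 (3 replicates per clone). WT was thus 1 clone, and every MCM2-2A value given here is a SUZ12 value.

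Type 2 vomeronasal receptors are class C G protein-coupled receptors with a large extracellular ligand-binding domain. They are made in the basal sensory neurons of the vomeronasal organ, where they detect peptide and protein pheromones and signal through the G protein subunit encoded by Gnao1 and the channel encoded by Trpc2. Each such neuron makes only a few receptors of the family. H3K9me3 marks constitutive heterochromatin, H3K27me3 is laid down by PRC2, H3K4me3 marks active or poised promoters, and H3K27ac marks active promoters and enhancers.

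H3K9me3 regions overlapped 58 of 123 members (47.2%) in the original list, beside 34.9% of all genes, and 107 (87.0%) in the rescue list, beside 59.7%. In the original list 65 members thus had none, and the median member window was 0% covered. H3K4me3 peaks lay in the windows of 22 members in the original list, beside 79.8% of all genes, and of 23 in the rescue list, beside 81.1%. Only at Vmn2r29, and only in the original list, did one meet the 300-base window over the receptor's own start. SUZ12 peaks lay in the window of 1 member, Vmn2r87, in WT 410 (beside 23.4% of all genes), MCM2-2A 439 (27.2%) and MCM2-2A 442 (28.8%). Because the authors had combined the replicates, no spread between replicates was available and no difference was tested. The 95% Wilson intervals given below cover counting error only, and neighbouring genes can share a region.

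The promoter sequences that these results turn on are printed here, as 300-base windows over an annotated start, taken from RefSeq on GRCm38.p6 (the mm10 assembly). Of the 123 members, 116 had such a sequence. The first 3 are shown because a peak overlapped the window of Vmn2r29 (chr7:7278240-7278539, minus strand) and that of Vmn2r12 (chr5:109097815-109098114, minus strand), while the second start of Vmn2r29 (chr7:7247279-7247578, minus strand) had none. Vmn2r74 (chr7:85961433-85961732, minus strand) is shown as a gene wholly inside H3K9me3 regions in both experiments. Vmn2r34 (chr7:7689349-7689648, minus strand) and Vmn2r45 (chr7:8488910-8489209, minus strand) had the same sequence base for base, so it is printed once. Capitals mark CpG dinucleotides.
Vmn2r29: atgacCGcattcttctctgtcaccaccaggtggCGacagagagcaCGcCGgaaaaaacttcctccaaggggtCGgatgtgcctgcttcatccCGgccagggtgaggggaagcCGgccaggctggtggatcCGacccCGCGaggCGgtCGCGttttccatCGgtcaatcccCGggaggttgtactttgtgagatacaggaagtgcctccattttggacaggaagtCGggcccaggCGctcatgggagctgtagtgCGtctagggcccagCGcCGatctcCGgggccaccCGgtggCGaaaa
Vmn2r29 second start: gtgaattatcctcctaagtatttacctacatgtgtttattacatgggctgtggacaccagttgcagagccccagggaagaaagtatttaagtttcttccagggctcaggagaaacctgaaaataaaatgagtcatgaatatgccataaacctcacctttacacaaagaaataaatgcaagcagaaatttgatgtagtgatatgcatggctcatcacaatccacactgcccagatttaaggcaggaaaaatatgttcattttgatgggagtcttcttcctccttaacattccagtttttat
Vmn2r12: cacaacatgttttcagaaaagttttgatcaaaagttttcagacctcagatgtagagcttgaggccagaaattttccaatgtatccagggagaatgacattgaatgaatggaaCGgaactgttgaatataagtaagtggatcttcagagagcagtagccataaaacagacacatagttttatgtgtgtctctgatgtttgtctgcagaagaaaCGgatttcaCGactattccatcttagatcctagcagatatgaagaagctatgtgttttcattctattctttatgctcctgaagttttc
Vmn2r74: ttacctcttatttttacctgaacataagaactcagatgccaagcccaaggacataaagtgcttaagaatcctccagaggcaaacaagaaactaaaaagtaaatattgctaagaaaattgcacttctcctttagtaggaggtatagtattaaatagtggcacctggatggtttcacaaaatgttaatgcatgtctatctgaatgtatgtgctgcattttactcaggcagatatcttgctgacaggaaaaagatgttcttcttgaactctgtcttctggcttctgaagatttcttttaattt
Vmn2r34 and Vmn2r45: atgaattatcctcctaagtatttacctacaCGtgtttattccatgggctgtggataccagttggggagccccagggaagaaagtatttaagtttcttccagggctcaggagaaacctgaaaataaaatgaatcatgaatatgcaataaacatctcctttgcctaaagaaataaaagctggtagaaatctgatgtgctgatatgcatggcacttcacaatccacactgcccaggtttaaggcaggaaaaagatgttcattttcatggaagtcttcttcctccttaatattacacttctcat

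A further pair is shown because its windows were near-copies while the coverage of the genes was unequal. Vmn2r6 (chr3:64559769-64560068, minus strand) and Vmn2r7 (chr3:64719553-64719852, minus strand) were 99.3% identical. The Vmn2r6 window lay inside the annotated gene, whose 5′ end is at 64565434. Whether either window holds a promoter was not tested. The windows differed at 2 aligned positions, which the capitals mark here.
Vmn2r6: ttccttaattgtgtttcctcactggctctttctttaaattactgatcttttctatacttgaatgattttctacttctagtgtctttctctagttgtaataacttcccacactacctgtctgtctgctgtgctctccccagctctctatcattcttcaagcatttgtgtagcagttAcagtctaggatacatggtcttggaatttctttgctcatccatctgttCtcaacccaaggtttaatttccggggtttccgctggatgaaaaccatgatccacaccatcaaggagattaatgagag
Vmn2r7: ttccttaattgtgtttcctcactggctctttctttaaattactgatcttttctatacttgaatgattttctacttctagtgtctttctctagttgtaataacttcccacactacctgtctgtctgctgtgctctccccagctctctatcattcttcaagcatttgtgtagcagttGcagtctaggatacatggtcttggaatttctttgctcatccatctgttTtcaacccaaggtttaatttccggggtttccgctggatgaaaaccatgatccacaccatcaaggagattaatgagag

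The member promoters were poor in CpG with 1 exception. The promoter of Vmn2r29 held 23 CpG, a count that 30.1% of all protein-coding promoters reached or passed. The other 115 members with a sequence held between 0 and 4, and 33 of the 116 held none. The median was 1 CpG in the members and 14 over the promoters of 16457 protein-coding genes, of which 4.95% held none. The median GC content was 38% in the members, ranging from 29% to 62.3%, and 56.7% over all genes. The sequence motif counted was CG, which reads the same on both strands, in a 300-base window.

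Vmn2r29 was also the only member whose own promoter window met an H3K4me3 peak. The peak had a 9.55-fold enrichment in the original list and lay 25 bp from the annotated start (chr7:7278314-7278731). Such a peak met a promoter window of 69.8% of 16457 genes, and of 1 of 116 members. In the rescue list, where 70.6% of those genes had one, none of the 116 members did. The same Vmn2r29 window lay inside H3K9me3 regions of both experiments. Its second annotated start, 31.0 kb further into the gene, held no CpG and lay only in the rescue H3K9me3 list. Taking 1 promoter per gene over all genes, 98.6% of those with 10 or more CpG met an H3K4me3 peak of the original list. Of those with under 10 CpG, 26.1% did. None of the 115 members with under 10 CpG did.

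H3K27ac met the promoter window of 1 of 116 members, Vmn2r12, against 43.9% of all genes with a promoter sequence. Its peak had a 14.6-fold enrichment, covered 1903 bp (chr5:109096814-109098716) and ranked 7049 of 128247 peaks. The Vmn2r12 promoter held 3 CpG. Another H3K27ac peak of 11.9-fold lay 1.27 kb into the gene, and H3K4me3 peaks of 5.27-fold and 8.35-fold lay 1.32 kb and 0.818 kb from the start in the original and rescue lists. Vmn2r12 thus had both marks next to its start, in a window that was 37.5% inside rescue H3K9me3 regions and 0% inside original ones.

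The H3K9me3 counts were set beside those of all genes. The original list, where 34.9% of all protein-coding genes had an overlap of at least 1 bp, held 58 members (47.2%, Wilson interval 38.6% to 55.9%). The rescue list, where 59.7% of all genes did, held 107 members (87.0%, interval 79.9% to 91.8%). The median member window was 0% covered in the original list and 30.2% in the rescue list, against 0% and 1.95% over all genes. Over the pooled bases of the windows, H3K9me3 covered 11.9% and 39.0% in the members and 4.61% and 10.29% in all genes. Member genes were also longer, with a median of 24544 bp against 17491 bp, and a longer window meets a region more readily. The pooled share of bases does not grow with length in this way.

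H3K27me3 gave a different picture. The original list, with 41.1% of all genes, held 48 members (39.0%, interval 30.9% to 47.9%). The rescue list, with 60.3% of all genes, held 87 (70.7%, interval 62.2% to 78.0%). The median window was 0% covered in the original list and 41.1% in the rescue list, against 0% and 6.18% over all genes. Pooled over bases, coverage was 9.10% and 39.8% in the members and 12.1% and 28.7% in all genes. The member share of bases was thus below that of all genes in the original experiment and above it in the rescue experiment.

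The rescue lists were larger than the original lists. H3K9me3 regions covered 7.92% of the autosomal span in the original list and 17.9% in the rescue list, and H3K27me3 regions covered 14.7% and 37.3%. When each rescue list was reduced to its strongest regions until it held as many bases as the original list, H3K9me3 still met 74 members (60.2%), beside 19.1% of all genes. H3K27me3 then met only 17 members (13.8%), beside 32.4% of all genes. The cut kept 14382 of 104026 H3K9me3 regions and 9890 of 63473 H3K27me3 regions. By the deposited score, whose scale is unstated, the H3K9me3 regions at members ranked high within their lists and the H3K27me3 regions did not. The regions that touched members had a median strength percentile of 73.5 (original) and 73.2 (rescue) for H3K9me3, against 48.2 and 48.9 for regions touching any protein-coding gene. For H3K27me3 the percentiles were 49.8 and 48.9, against 58.1 and 55.2. H3K9me3 regions at members were also wider, with a median of 6.68 kb (original) and 7.88 kb (rescue) against 2.48 kb and 1.60 kb at all genes. Whether the score rises with width was not tested, so score rank, width and the reduced-list counts need not be separate traits. The original and rescue experiments differed in list size and replicate number, and what set the list size was not tested.

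**Figure D1:**
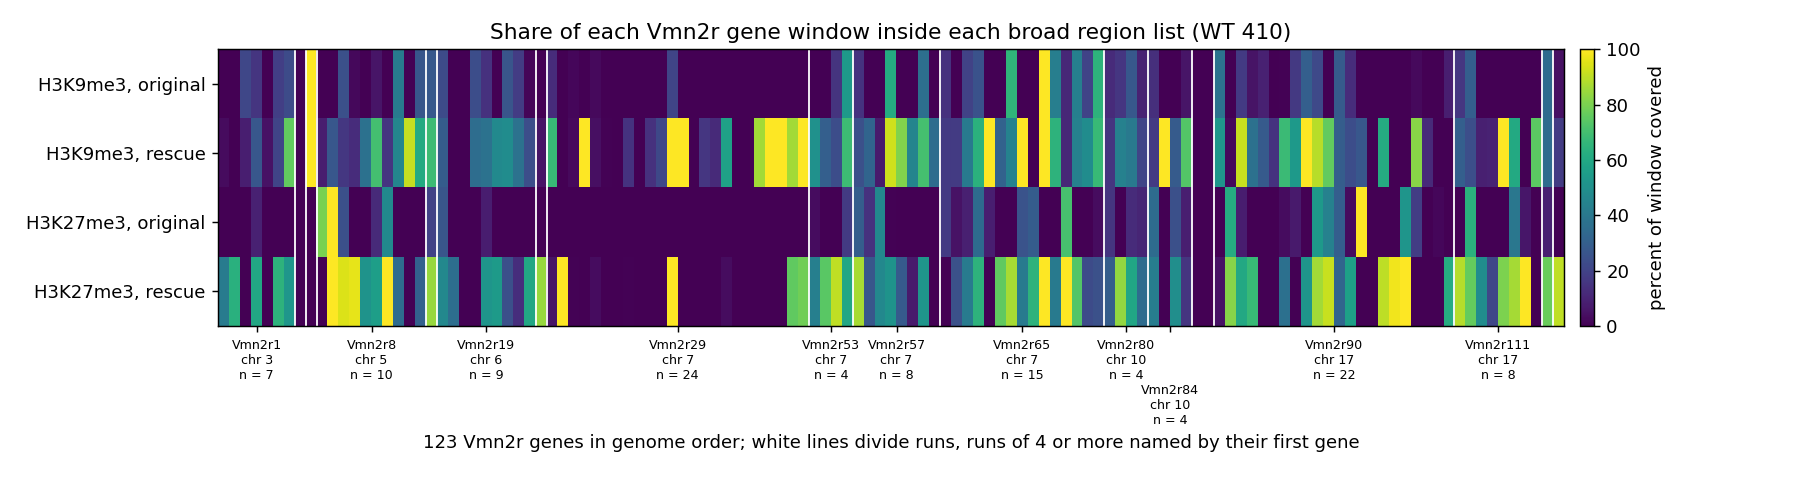
Each column is 1 of the 123 Vmn2r genes in genome order and each row 1 of the 4 broad lists of WT 410. Colour gives the percent of the gene window covered, from 0 to 100. The rescue rows are brighter than the original rows for most genes, and the run of 24 genes that starts with Vmn2r29 is dark in both original rows.

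The promoter marks and SUZ12 were sparse. The original H3K4me3 list, which met 79.8% of all genes, met 22 members (17.9%, interval 12.1% to 25.6%). The rescue H3K4me3 list met 81.1% of all genes and 23 members (18.7%). H3K27ac met 68.1% of all genes and 19 members (15.4%). SUZ12 met 23.4% of all genes in WT 410, 27.2% in MCM2-2A 439 and 28.8% in MCM2-2A 442, and 1 member (0.813%, interval 0.144% to 4.46%) in each. In all, 92 members had no peak of H3K4me3, H3K27ac or SUZ12 in their window, a count not made over all genes.

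Members lay far from SUZ12. The median distance from a member to the nearest WT 410 SUZ12 peak was 583 kb, with a range from 0.955 kb to 2786 kb, against a median of 66.2 kb over all protein-coding genes. Over 100 kb away lay 111 members (91.0% of those with a distance), against 41.7% of all genes. To the nearest H3K4me3 peak of the original list the median was 31.1 kb in the members and 0 kb over all genes. These distances leave out Vmn2r122, whose annotated position on chromosome 4 lies before position 3050030, the first position of any list on that chromosome. Its absence from every list therefore says nothing of its chromatin. The annotation places 105 protein-coding genes before the first position of the lists in this way, and they were kept in the counts over all genes.

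**Figure D2:**
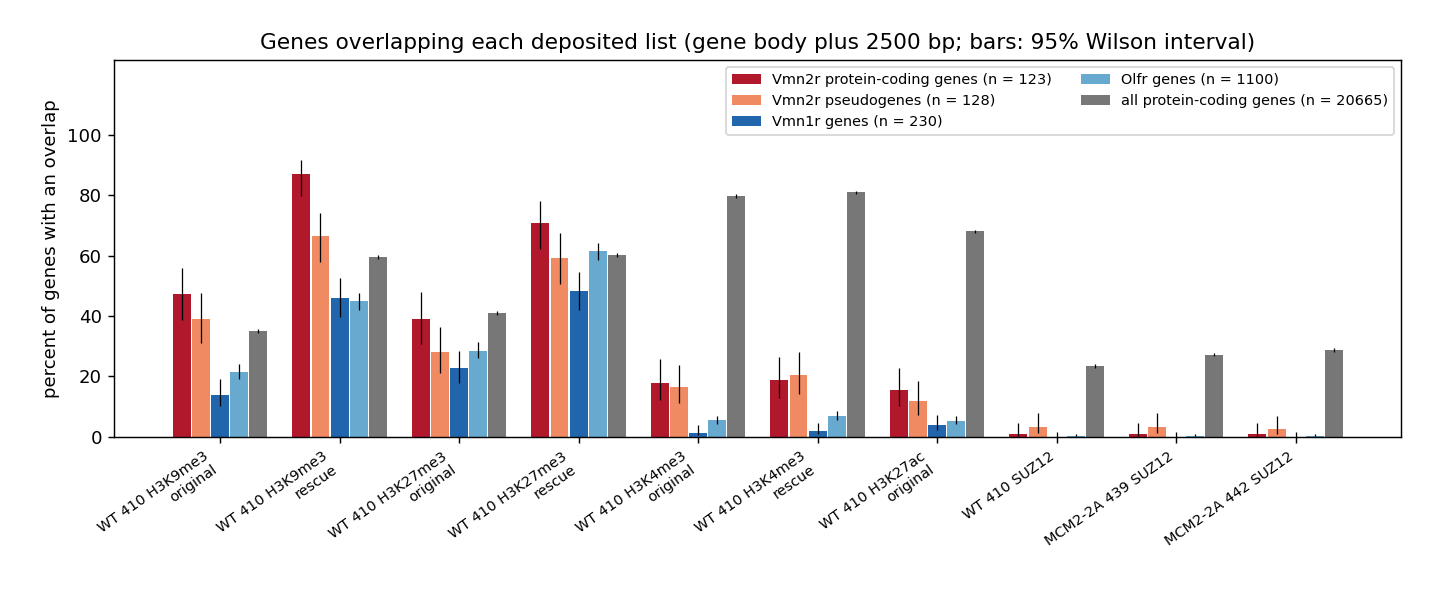
Bars give the percent of genes whose body plus 2500 bp overlapped each of the 10 lists, and lines the 95% Wilson interval. Vmn2r genes stand at 47.2% and 87.0% for H3K9me3, above all protein-coding genes at 34.9% and 59.7%, and at 15.4% to 18.7% for H3K4me3 and H3K27ac, below them at 68.1% to 81.1%.

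The other chemoreceptor families gave lower H3K9me3 shares. Among 230 Vmn1r genes, the type 1 vomeronasal receptors, 13.9% met the original and 46.1% the rescue list. Among 1100 Olfr genes, the odorant receptors, 21.5% and 44.8% did. These genes are short (medians of 924 bp and 950 bp), which lowers such shares, so the pooled bases are the fairer comparison. In the rescue H3K9me3 list they stood at 22.6% for Vmn1r and 20.9% for Olfr genes, against 39.0% for Vmn2r genes. In the original list they stood at 6.06%, 9.41% and 11.9% in the same order. The 128 annotated Vmn2r pseudogenes reached 22.0% (original) and 44.7% (rescue) of bases, above the protein-coding members in both lists. By overlap they stood lower, at 39.1% and 66.4% against 47.2% and 87.0%, and their rescue median was 28.3% against 30.2%. Their annotated spans had a median of 3220 bp and a maximum of 211881 bp, and long spans weigh most in pooled bases. For the other marks the order differed. Pooled H3K27me3 was higher in Olfr genes, at 17% (original) and 45.9% (rescue), than in Vmn2r genes, at 9.10% and 39.8%. Original H3K4me3 was sparser still in the other families, at 1.3% of Vmn1r and 5.36% of Olfr genes against 17.9% of the longer Vmn2r genes. WT 410 SUZ12 met none of the 230 Vmn1r genes and 0.273% of Olfr genes, against 0.813% of Vmn2r genes. None of these differences between families was tested.

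The members fell into 18 chromosomal runs when neighbours up to 1000000 bp apart were joined. Of these runs, 12 held 2 or more genes (117 genes together), and 6 were single genes. The largest was a run of 24 genes on chromosome 7 from 7.21 Mb to 10.18 Mb (Vmn2r29 to Vmn2r52). Next came 22 genes on chromosome 17 from 17.70 Mb to 20.60 Mb (Vmn2r90 to Vmn2r110) and 15 on chromosome 7 from 84.94 Mb to 87.04 Mb (Vmn2r65 to Vmn2r79).

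H3K9me3 covered more of the span of these runs than of the autosomes at large in nearly every case. Of the 12 runs of 2 or more genes, 10 exceeded the 7.92% of the autosomal span in the original list and 11 the 17.9% in the rescue list. The median run was 19.1% covered in the original list and 44.5% in the rescue list. For H3K27me3, 1 run exceeded the autosomal share of the original list and 6 that of the rescue list, with medians of 9.10% and 36.3%. The highest H3K9me3 span values were 30.7% in the original list, at the chromosome 10 run of 4 genes from Vmn2r80 to Vmn2r83, and 66.5% in the rescue list, at the chromosome 10 run from Vmn2r84 to Vmn2r87. The highest H3K27me3 value was 71.1%, in the rescue list, at the chromosome 7 run from Vmn2r53 to Vmn2r56.

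Within a run, the 2 marks differed in where they lay. In the original H3K9me3 list, coverage inside the gene windows was higher than between them in 1 of the 12 runs, the median run having 9.74% inside and 22.2% between. In the original H3K27me3 list it was higher inside in 10 of 12, with medians of 10.8% inside and 8.36% between. In the rescue lists it was higher inside in 3 of 12 runs for H3K9me3, whose medians were close (40.9% inside and 42.3% between), and in 8 of 12 for H3K27me3 (41.1% and 32.8%). The space between the windows holds the pseudogenes of the family as well as other sequence.

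**Figure D3:**
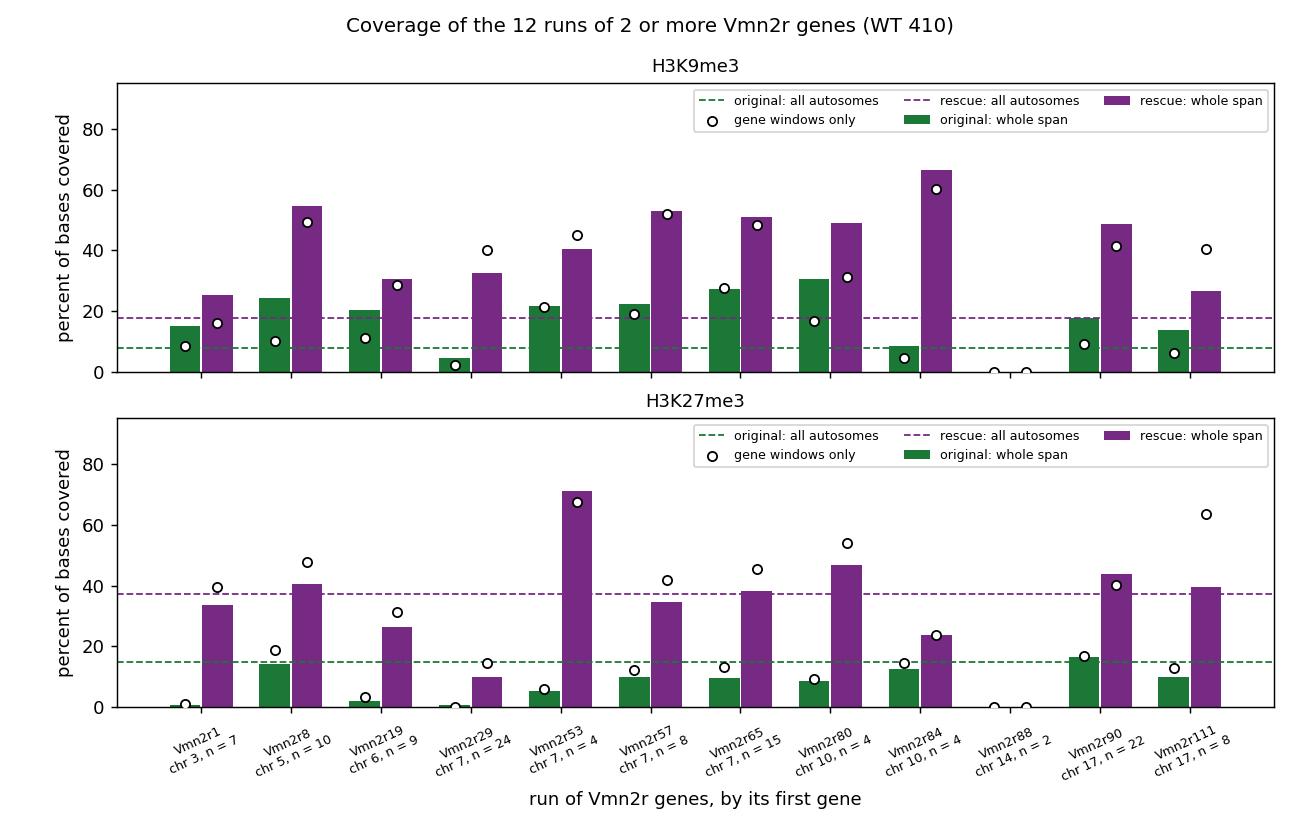
Bars give the percent of each run's span covered by H3K9me3 (upper panel) and H3K27me3 (lower panel) in the original and rescue lists of WT 410, open circles the same over the gene windows alone, and dashed lines the share of all autosomes. The run of Vmn2r88 and Vmn2r89 on chromosome 14 is at 0% in all 4 lists.

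The run of 24 genes on chromosome 7 had little of either mark in the original experiment, though more than the chromosome 14 run, which was at 0%. H3K9me3 covered 4.67% of its span there and H3K27me3 0.636%, near the 0.875% of the chromosome 3 run, and 4 and 1 of its genes had an overlap. In the rescue experiment H3K9me3 covered 32.5% of the span and met 20 genes, with H3K27me3 at 9.95% and 10 genes. Coverage in the rescue H3K9me3 list spanned the whole range along this run. Vmn2r32, Vmn2r44, Vmn2r45, Vmn2r49, Vmn2r50 and Vmn2r52 were 100% covered, whereas Vmn2r34, Vmn2r35 and Vmn2r41 were 0.403%, 0.390% and 0.318% covered. Vmn2r30, Vmn2r40, Vmn2r46 and Vmn2r47 were at 0%. A single H3K9me3 region of 264 kb, the widest at any member, covered Vmn2r52 and 86.1% of the Vmn2r51 window, and another of 154 kb covered Vmn2r49 and Vmn2r50 and reached into Vmn2r48 (86.3%).

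These genes are also the closest copies of each other. In this run, 22 genes had a promoter sequence, and the median identity to the most similar other member was 99%, against 89.9% in the other runs. Of all 116 members with a sequence, 37 had another member at 95% or more, 18 at 99% or more, and 8 at 100%. For 103 the most similar promoter lay in the same run.

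Genes with near-identical promoter windows did not always share a coverage value. Vmn2r34 and Vmn2r45, which share the sequence printed above, were 0.403% and 100% covered in the rescue H3K9me3 list. Vmn2r31 was 2.46% covered and Vmn2r44, whose promoter is 99.3% identical, 100%. Vmn2r6 and Vmn2r7, whose windows are also printed above and need not be promoters, were 20.6% and 76.0% covered. In the original list this last pair was closer, at 18.5% and 22.8%. Other pairs were alike. Vmn2r32 and Vmn2r49, with identical promoters, were both 100% covered in the rescue list and both 0% in the original. Vmn2r62 and Vmn2r126, identical as well, stood at 45.4% and 35.2% in the rescue list. Reads from such copies can be hard to place on one of them. The sources used here do not say how such reads were placed, and their part in these values was not tested.

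The family C genes Vmn2r1 to Vmn2r7 form the run on chromosome 3. They encode receptors that are made broadly across basal vomeronasal neurons, beside the more restricted receptors of the other families. Original H3K9me3 met 4 of the 7, namely Vmn2r7 at 22.8%, Vmn2r3 at 21.4%, Vmn2r6 at 18.5% and Vmn2r4 at 15.4%, while Vmn2r1, Vmn2r2 and Vmn2r5 were at 0%. Rescue H3K9me3 met 6, with Vmn2r7 at 76.0% and Vmn2r4 at 27.1%, and Vmn2r2 alone at 0%. The family C median was below that of the other 116 members in the rescue list (8.46% against 31.8%) and above it in the original list (15.4% against 0%). For rescue H3K27me3 the median was 52.7%, against 36.6%, and Vmn2r6 (64.7%) and Vmn2r2 (63.6%) were highest. Vmn2r4 alone carried original H3K27me3, at 9.35%. Vmn2r3 was at 0% in both H3K27me3 lists and was rich in H3K27ac, as described below.

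At single genes, the most complete H3K9me3 coverage was at Vmn2r74 and Vmn2r129, both 100% in the original and in the rescue list. Vmn2r74 lay in a region of 98.3 kb (original) and 99.9 kb (rescue), at the 99.7th and 99.8th percentile of strength. Vmn2r129, a single gene on chromosome 4, had no other mark in its window. Vmn2r71 (65.5%), Vmn2r79 (64.7%) and Vmn2r60 (61.7%) followed in the original list and stood at 44.3%, 67.5% and 92.6% in the rescue list. Vmn2r97 was 30.2% and 100% covered, and Vmn2r114, Vmn2r72 and Vmn2r69 were 0% and 100%. In all, 13 of 123 members were 100% covered in the rescue list and 2 in the original, beside 292 and 84 of all 20665 genes.

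H3K9me3 was missing from both lists at 15 members. These were Vmn2r2, Vmn2r20, Vmn2r21, Vmn2r30, Vmn2r40, Vmn2r46, Vmn2r47, Vmn2r73, Vmn2r88, Vmn2r89, Vmn2r103, Vmn2r105, Vmn2r106, Vmn2r116 and Vmn2r122. Some of the 15 met the rescue H3K27me3 list, which met 70.7% of all members and 60.3% of all genes. Vmn2r30, Vmn2r106 and Vmn2r116 were 100% covered by it, Vmn2r105 98% and Vmn2r73 64.8%. Vmn2r2 was 63.6%, Vmn2r20 36.1% and Vmn2r40 0.352% covered, and the rest were at 0%. Like counts over all genes were not made for these members. Of the 15, 7 were in none of the 10 lists, namely Vmn2r21, Vmn2r46, Vmn2r47, Vmn2r88, Vmn2r89, Vmn2r103 and, for the reason given above, Vmn2r122. Vmn2r103 sits inside the large chromosome 17 run, between Vmn2r102 and Vmn2r104, both of which carried rescue H3K9me3 (27% and 61.7%).

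H3K27me3 was fullest at Vmn2r9, which was 100% covered in both lists. Vmn2r76 was 71.0% and 100% covered and Vmn2r106 52.0% and 100%. Other genes changed places between the experiments. Vmn2r102 was 100% covered in the original list, inside a region of 60.2 kb, and 0% in the rescue list. Vmn2r8 was 79.7% covered in the original list and 0% in the rescue list. Vmn2r44 went the other way, from 0.390% to 100%.

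Agreement between the experiments was one-sided for the broad marks and, by gene window, close to complete for H3K4me3. Of the 58 members with original H3K9me3, 57 also had rescue H3K9me3 (98.3%), but these were only 53.3% of the 107 in the rescue list. Coverage was higher in the rescue list at 100 members and in the original at 6. For H3K27me3, 41 of 48 original members were in the rescue list (85.4%), which was 47.1% of its 87. All 22 members with original H3K4me3 had rescue H3K4me3, which was 95.7% of the 23. The rescue lists were larger, at 17.9% against 7.92% of the autosomal span for H3K9me3 and 37.3% against 14.7% for H3K27me3. Such overlaps between the experiments were not computed over all genes, and the part of list size in them was not tested. The rank correlation of coverage between the experiments across the 123 genes, which share clone and runs, was 0.34 for H3K9me3, 0.31 for H3K27me3 and 0.98 for H3K4me3, the last over 100 members at 0% in both lists. A shared window need not be a shared peak, since the H3K4me3 peaks at Vmn2r1 and Vmn2r29 lay at different places in the 2 lists.

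The 2 broad marks met in the rescue lists. There 78 members had both, 29 H3K9me3 alone, 9 H3K27me3 alone and 7 neither. In the original lists the counts were 30, 28, 18 and 47. Both marks were listed at 63.4% of members in the rescue experiment, against 40.8% of all genes, and at 24.4% against 19.1% in the original. Counted base by base, 13 members had at least 50% of their window under both marks in the rescue lists, a count not made over all genes. Some bases under both marks were found at 66 members (53.7%), against 24.99% of all genes. Pooled over windows they made up 14.5% of bases, against 2.61% over all genes, where each mark alone also covered less. In the original lists they made up 0.292% in the members and 0.275% over all genes. Vmn2r44 and Vmn2r74 were 100% covered by both marks in the rescue lists. Whether both marks lie on the same chromatin fibres or on different cells or alleles cannot be told apart in such lists. Across genes, the rank correlation of H3K9me3 with H3K27me3 coverage was 0.06 in the rescue lists and 0.17 in the original lists.

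Along the gene, the 2 marks had different shapes in the 116 members with a known strand. Rescue H3K27me3 was highest in the first of 5 equal parts of the gene body, where it covered a mean of 49.2% of bases, and lower in the 2500 bp upstream (40.2%) and downstream (33.4%). Rescue H3K9me3 was lowest in that same part, at 36.8%, and higher upstream (42.4%) and downstream (47.0%). In the original lists the first part was again highest for H3K27me3 (14%) and lowest for H3K9me3 (7.69%). The flanks were in the other order there, with H3K27me3 at 9.66% upstream and 11.1% downstream and H3K9me3 at 15.7% and 13.97%. Over all genes, H3K27me3 fell from upstream (36.2% in the rescue list) to downstream (23.6%) without a rise in the first part of the gene (31.1%). H3K9me3 over all genes was also lowest there, at 7.88%, but varied less in points of coverage, up to 12.2% downstream. At the promoter windows themselves, rescue H3K9me3 met 46 of 116 members (39.7%), beside 10.11% of all genes with a promoter sequence. Original H3K9me3 met 12, beside 2.76%. Rescue H3K27me3 met 58 (50%), beside 37.3%, and original H3K27me3 16 (13.8%), beside 21.4%. SUZ12 met none of the 116, beside 17.5% of all such genes in WT 410, 20.4% in MCM2-2A 439 and 21.9% in MCM2-2A 442.

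**Figure D4:**
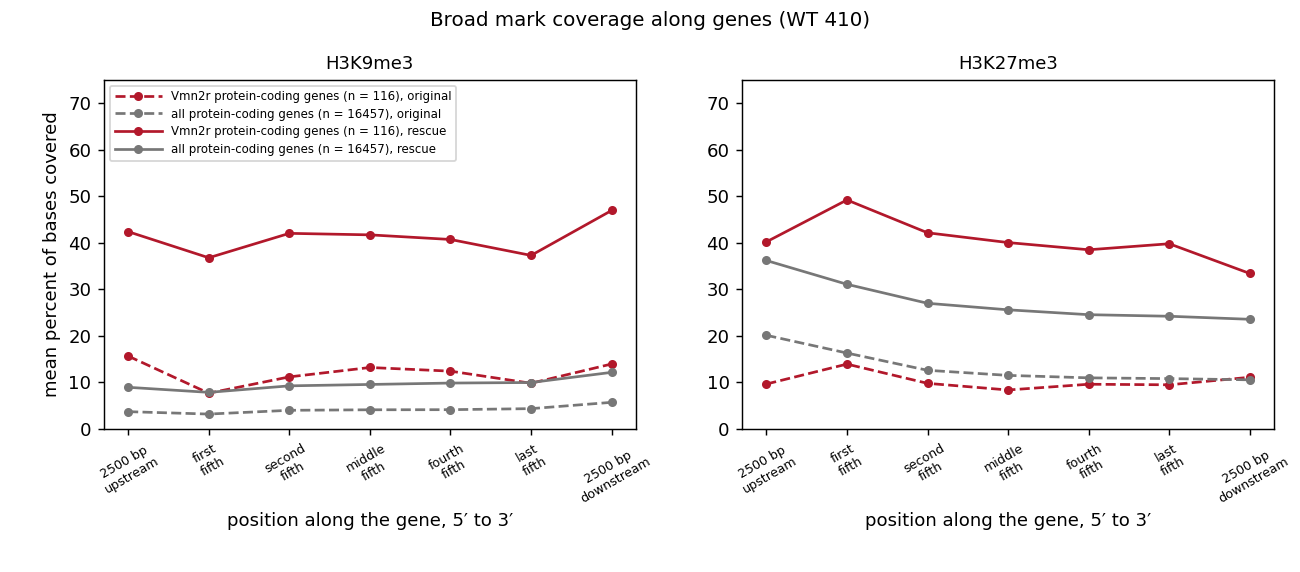
Lines give the mean percent of bases covered in the 2500 bp upstream, in 5 equal parts of the gene body and in the 2500 bp downstream, for 116 Vmn2r genes and 16457 protein-coding genes with a known strand, in the original (dashed) and rescue (solid) lists of WT 410. In Vmn2r genes, rescue H3K27me3 peaks at 49.2% in the first part, where rescue H3K9me3 is lowest at 36.8%.

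The H3K4me3 peaks in member windows were mostly within the genes and away from their starts. The original list had 27 such peaks, 21 in gene bodies, 2 in the upstream and 4 in the downstream flank, at a median of 19.3 kb from the gene's own start. Their median enrichment was 11.3-fold, against 9.63-fold over the list. In the rescue list 25 peaks had a median of 13.5-fold, against 8.93-fold. None overlapped the promoter window of another gene. In the original list 6 peaks lay in an annotated pseudogene, at Vmn2r1, Vmn2r24, Vmn2r53, Vmn2r86 and Vmn2r87.

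The strongest was at Vmn2r87, with 80.3-fold enrichment in the original and 76.9-fold in the rescue list. In the original list it was followed by Vmn2r24 (31.5-fold), Vmn2r27 (28.7-fold), Vmn2r86 (24.2-fold), Vmn2r90 (23.1-fold), Vmn2r91 (22.7-fold), Vmn2r3 (22.5-fold) and Vmn2r65 (20.9-fold). In the rescue list Vmn2r3 stood at 35.6-fold, Vmn2r90 and Vmn2r65 at 31.9-fold each, Vmn2r24 at 29.8-fold and Vmn2r86 at 28.3-fold. Vmn2r55 (27.3-fold) and Vmn2r44 (23.6-fold) completed the leading 8. The Vmn2r44 peak lay 1.33 kb upstream of its start, inside H3K9me3 regions of both lists. In the original list 5 of the 27 peaks, and in the rescue list 15 of the 25, lay in an H3K9me3 region of the same experiment. H3K9me3 covered 11.9% and 39.0% of the bases of member windows in these experiments. The like share over all H3K4me3 peaks was not computed.

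H3K27ac gave 51 peaks at 19 members, and a few were among the strongest of the whole list. The strongest was at Vmn2r90, a peak of 47.3-fold and 6111 bp that ranked 98 of 128247 and began in the 3′ flank, 32.4 kb from the gene's start. Most of it lay beyond the Vmn2r90 window. At Vmn2r85, peaks of 37.4-fold and 28.1-fold ranked 365 and 1200 and lay in the gene body. Vmn2r85 was at the same time 100% covered by rescue H3K9me3 and 0% by original H3K9me3. At Vmn2r3 a peak of 29.96-fold spanned 8467 bp of the gene body and ranked 937, and H3K27ac covered 30.4% of the Vmn2r3 window in all. Vmn2r12 (14.6-fold) and Vmn2r27 (11.8-fold) followed. Vmn2r1 and Vmn2r2, whose windows overlap, shared a peak of 8.07-fold, and Vmn2r87 had 6.52-fold. The median of the 51 was 4.33-fold, near the 3.98-fold of the list.

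SUZ12 was met at Vmn2r87 alone. The peak lay in the 3′ flank, 0.955 kb to 0.979 kb beyond the annotated gene and 26.5 kb from its start, over the annotated pseudogene Gm18755. Its enrichment was 8.27-fold in WT 410 (chr10:130469523-130470866), 15.9-fold in MCM2-2A 439 and 10.9-fold in MCM2-2A 442. The values in both MCM2-2A clones were above the WT value, with 1 combined value per clone and no test. Within the lists the peak ranked 4365 of 6298, 3122 of 7571 and 4013 of 7840, and the list medians were 13.4-fold, 12.4-fold and 11.1-fold, so that it was below the median in WT 410 and MCM2-2A 442 and above it in MCM2-2A 439. The 80.3-fold H3K4me3 peak and the 6.52-fold H3K27ac peak of Vmn2r87 lay at the same place, and no H3K9me3 region did. Vmn2r87 was the 1 member found in all 10 lists.

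A second SUZ12 peak of the same run lay 5.08 kb from Vmn2r85 over the pseudogene Ctdsp2-ps, outside every member window. It had 8.15-fold enrichment in WT 410, 5.28-fold in MCM2-2A 439 and 7.49-fold in MCM2-2A 442, so here both MCM2-2A values were below the WT value. In the span of the largest run, SUZ12 peaks lay at Clcn4, a chloride channel gene, and in the chromosome 17 run at Has1, a hyaluronan synthase gene, 11.2 kb and 115 kb from the nearest member in WT 410. The chromosome 17 run held another site in all 3 clones, at the annotated genes Gm7535 and Gm9481, with 10.44-fold enrichment in WT 410 and 138 kb from Vmn2r124.

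**Figure D5:**
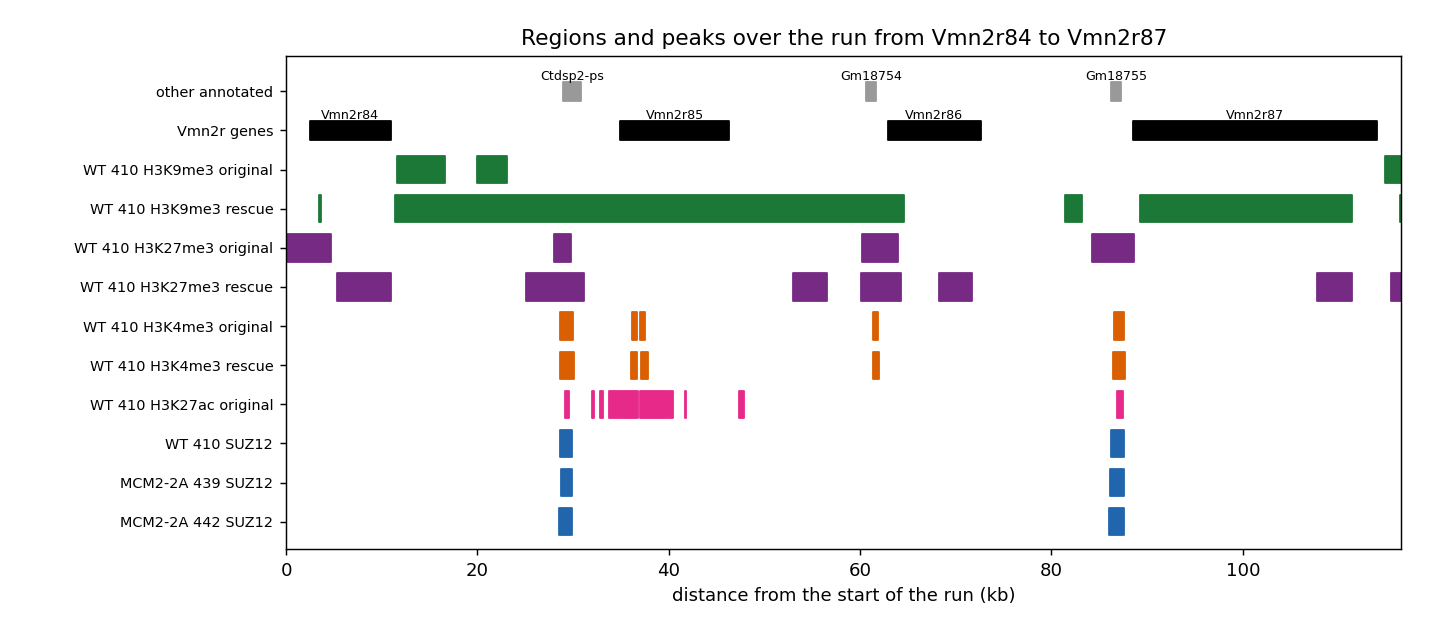
Horizontal bars show regions and peaks of the 10 lists over the chromosome 10 run of Vmn2r84 to Vmn2r87, in kb from the start of the run, with Vmn2r genes in black and other annotated genes in grey. The SUZ12 peaks of all 3 clones stack at Ctdsp2-ps and at Gm18755, each with H3K4me3 peaks, and a rescue H3K9me3 region lies over Ctdsp2-ps but not over Gm18755.

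A list of 22 signalling and identity genes of basal vomeronasal neurons was read in the same way. SUZ12 met 10 of the 22 in WT 410, beside 23.4% of all genes, 9 in MCM2-2A 439 and 10 in MCM2-2A 442. Original H3K4me3 met 13 (79.8% of all genes), H3K27ac 8 (68.1%) and H3K9me3 7 in the original list (34.9%) and 13 in the rescue list (59.7%). Gnao1, the G protein subunit gene, had H3K4me3 at 54.4-fold and SUZ12 at 16.8-fold in WT 410. Ano1, a calcium-activated chloride channel gene, had SUZ12 at 29.03-fold and Ano2, of the same family, at 5.25-fold in WT 410 and 7.17-fold in MCM2-2A 442, with no peak in MCM2-2A 439. Trpc2, the channel gene, had H3K4me3 at 26.1-fold and 90.6% rescue H3K27me3 coverage without SUZ12. The 9 H2-M genes of the list, nonclassical class I genes expressed in basal neurons, had no H3K4me3, H3K27ac or SUZ12 peak, a group singled out after its values were seen. Their H3K27me3 coverage was uneven. H2-M10.1 and H2-M10.6 were 100% covered in both lists, and H2-M10.3 and H2-M10.4 were at 0% in both. H2-M1, H2-M9, H2-M10.5 and H2-M11 were at 0% in the original and 100% in the rescue list. H2-M10.2 was 33.8% and 49.3% covered.

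Of 18 other class C receptor genes, original H3K4me3 met 17 (79.8% of all genes) and WT 410 SUZ12 12 (23.4%). H3K9me3 met 12 in the original list (34.9% of all genes) and 14 in the rescue list (59.7%), in genes with a median length of 81452 bp. Casr, the calcium-sensing receptor gene, had H3K4me3 at 65.8-fold and SUZ12 at 8.99-fold. Gprc6a, an amino acid receptor gene, had H3K27me3 over 55.2% (original) and 85.5% (rescue) of its window and no SUZ12. Among the taste receptor genes, Tas1r3 had no H3K4me3 peak and Tas1r1 one of 94.8-fold.

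The labels were checked against marker lists. All 10 ES cell markers, Pou5f1, Sox2 and Nanog among them, had H3K4me3 and H3K27ac peaks, beside 79.8% (original H3K4me3) and 68.1% of all genes. Their strongest H3K27ac peaks reached between 12.85-fold (Klf5) and 40.8-fold (Tdgf1). Of 6 vomeronasal neuron markers, 6 had H3K4me3 and 4 H3K27ac, the 4 reaching between 3.13-fold and 10.7-fold, and Omp and Tfap2e had none. Of 6 fibroblast markers, 5 had original H3K4me3 and 1 H3K27ac, at 5.68-fold. An H3K4me3 peak was thus common in every marker list. The part of other cell types in the values at Vmn2r genes was not tested. The cells were of the 129/Ola strain and the coordinates those of a C57BL/6J assembly, and copy number differences between the strains in these runs were not tested.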

How the data were processed

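Lists of enriched regions came from WT 410 and from the MCM2-2A clones. Per the submitters' notes, tools included BWA 0.7.15, MACS2 2.1.0, cutadapt 2.5 and Picard 2.20.7, on mm10. The sources used here give neither the caller settings, nor the caller of the broad regions, nor how reads with several placements were handled. For H3K4me3, H3K27ac and SUZ12 the authors deposited peaks with a fold enrichment (a ratio), used as it stood. For H3K9me3 and H3K27me3 the authors deposited regions, each with a score of unstated scale. That score served for ranking within its own list. Read depth was unknown. Since each list pools its replicates, no test was run.

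Genes, biotypes and coordinates came from the RefSeq table of GRCm38.p6, and promoter sequences and strands from the RefSeq promoter table of that build. Overlap required at least 1 bp of the gene body plus 2500 bp. Starts count from 1. Coverage was computed in Python 3 with numpy and pandas, promoter identity with Biopython global alignment, and intervals by the Wilson method at 95%. Interval arithmetic was tested on simulated data. The authors' list of each group was matched to its samples through the labels.

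The members and gene lists were chosen with earlier results of these data known. Named were members with SUZ12, the 8 strongest per H3K4me3 or H3K27ac list, the 5 most covered per broad list (ties by length), the highest and lowest H3K9me3 of each run of 5 or more, up to 10 members without H3K9me3, Vmn2r1 to Vmn2r7, and up to 6 genes per background list. Other genes, such as those of the near-copy pairs, were named after their values were seen.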

Additional observations from a re-analysis of the deposited data

How the results depend on the processing

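No paired analysis was possible because each list combined its replicates and no test was run; for the same reason no replicate could be left out. Of 88 alternatives to 19 results, 64 left a count within 1.5 times its value or a median within its 95% interval, and 24 did not. Requiring 50% of the window to be covered gave 6 (original) and 41 (rescue) members for H3K9me3, beside 335 and 926 of all 20665 genes. For H3K27me3 it gave 8 and 52 members, beside 2012 and 5147 of all genes. Counts over all genes were not made for the stronger 50% of each list, the gene body alone or the 10000 bp window. With the stronger 50% of each list, H3K27me3 met 29 and 57 members, original H3K4me3 14, SUZ12 0 in WT 410 and in MCM2-2A 442, and the rescue H3K27me3 median was 0%. The gene body alone gave 0 members with SUZ12 in each of the 3 lists. With 10000 bp either side, SUZ12 met 2 in each, rescue H3K4me3 35 and H3K27ac 34, and the median coverage was 6.64% and 40.7% for H3K9me3 and 0.118% for original H3K27me3. Rescue lists reduced to the bases of the original lists gave a median of 11.6% for H3K9me3 and, for H3K27me3, 17 members and a median of 0%. The member share then fell below that of all genes (13.8% and 32.4%), where with the whole list it was above (70.7% and 60.3%). Leaving out Vmn2r122, or the largest chromosome 7 run, both chosen after seeing the data like the member counts in the reduced lists, moved no value past these limits. With gaps of 500000 bp or 3000000 bp in place of 1000000 bp, there were 20 and 14 runs in place of 18.

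A list records what passed the thresholds of the authors and gives no level below them.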

Other observations

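Of the 128 annotated Vmn2r pseudogenes, 4 met a SUZ12 peak, all on chromosome 4. In WT 410 this was 3.12%, beside 23.4% of all protein-coding genes. Vmn2r-ps16, Vmn2r-ps17 and Vmn2r-ps18 had one in all 3 clones and Vmn2r-ps15 in WT 410 and MCM2-2A 439. The highest enrichment within the Vmn2r-ps17 window was 3.42-fold in WT 410, 11.5-fold in MCM2-2A 439 and 11.6-fold in MCM2-2A 442. At Vmn2r-ps16 it was 8.78-fold, 9.86-fold and 8.36-fold in the same order, and at Vmn2r-ps18 4.96-fold, 4.86-fold and 4.91-fold. At Vmn2r-ps15 it was 6.01-fold in WT 410 and 8.25-fold in MCM2-2A 439. The highest peak of a window need not be the same peak in each clone. Original H3K9me3 covered 53.9% of the Vmn2r-ps16 window and rescue H3K9me3 57.4%. Vmn2r-ps18 was 100% covered by rescue H3K9me3 and by rescue H3K27me3, and its window also held H3K4me3 (48.2% in the original list) and H3K27ac (38.6%). The annotated spans of Vmn2r-ps15, Vmn2r-ps16 and Vmn2r-ps17 are between 74243 bp and 160377 bp long and can hold other genes, so these peaks need not belong to the pseudogenes.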
